A study of Homo sapiens with 4 samples.

Results

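The genes described here are 33 of the 58735 genes in the table of Myla cells. They encode the enzymes of glycolysis, its glucose and lactate transporters and its regulators, with selected enzymes of glycogen metabolism and the pentose phosphate pathway. They were taken by name, with no measured value in the rule, and all 33 names matched a row. Myla is a cell line of mycosis fungoides, a T cell lymphoma of the skin. The shFOXM1 group (2 libraries, genotype FOXM1 knockdown) was transduced with a lentivirus that carries short hairpin RNA against FOXM1, which encodes a transcription factor active in proliferating cells. The shControl group (2 libraries, genotype WT) was transduced with a lentivirus that carries scrambled hairpin RNA. Each 1 mL culture of either group was given 10 uL of virus medium and, after 24 h, fresh medium, and RNA was extracted a further 72 h later. Whether shFOXM1 1 and shFOXM1 2 hold the same hairpin is not stated, and their values are given apart throughout. The submitters call the libraries biological replicates, but no label says that the cultures were transduced separately. The p-values therefore measure only the spread between these libraries.

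Glycolysis splits glucose into pyruvate in the cytosol. In dividing T cells and in many tumours much of the pyruvate is turned into lactate and exported even when oxygen is present, while side branches feed glycogen and, through the pentose phosphate pathway, the ribose of nucleotides. Most steps are run by isoenzymes encoded by separate genes, and hypoxia-inducible factor and MYC are known activators of many of these genes.

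Levels are given in FPKM, the reads of a gene scaled by its length and by library size. For the genes described here that length counts all annotated exons, so comparisons between genes depend in part on annotation. Differences are on the log2(FPKM + 1) scale, shFOXM1 minus shControl, and this scale understates the change of genes at low levels. The libraries held 15017728 and 14680094 reads in shFOXM1 1 and 2, against 14147084 and 14778639 reads in shControl 1 and 2. FOXM1 was at 9.27 and 5.59 FPKM in shFOXM1 1 and 2, against 26.5 and 27.6 FPKM in shControl 1 and 2. The targeted gene was thus lower in both knockdown libraries, at 34.2% of the shControl mean in shFOXM1 1 and 20.6% in shFOXM1 2 (log2 difference -1.77, SE 0.23, limma adjusted p = 0.173). The shFOXM1 libraries also stood further apart than the shControl libraries did: over the 12033 genes tested, the SD of the log2 difference was 0.424 between the shFOXM1 libraries and 0.263 between the shControl libraries. Of 15 T cell markers, 10 reached 1 FPKM in at least 2 libraries, among them CD3D at 95.1 and 154 FPKM in shFOXM1 and 125 and 118 FPKM in shControl. CD4 was listed at 0 in all 4 libraries, and CD3E and LCK stayed at or below 0.138 FPKM. The summed level of the T cell markers was 1002 and 793 FPKM in shFOXM1 1 and 2 and 890 and 900 FPKM in shControl. The gap between the shFOXM1 sums rested mainly on a single gene, IL2RA, at 354 and 141 FPKM in shFOXM1 and 258 and 249 FPKM in shControl. CD3D ran the other way, with its higher level in shFOXM1 2. In a bulk library, fewer cells with a transcript and less of that transcript per cell cannot be told apart.

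Most of the glycolytic genes were lower in the library shFOXM1 2, while shFOXM1 1 lay closer to the controls than shFOXM1 2 did. The 17 enzymes from hexokinase to lactate dehydrogenase took 1.43 and 1.03% of all reads in shFOXM1 1 and 2, against 1.74 and 1.61% in shControl 1 and 2. The sum was lowest in shFOXM1 2, and both knockdown libraries lay below both controls. A gene was tested if it reached 1 FPKM in at least 2 libraries, which 32 of the 33 genes did. The median log2 difference of these 32 was -0.06 in shFOXM1 1 and -0.55 in shFOXM1 2, beside 0.02 and -0.01 over all genes tested. Over both libraries together it was -0.31, with 25 of the 32 lower by sign and 7 higher. Of all 12033 genes tested, 6025 were lower by sign and 6008 higher.

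The limma test over both groups called 0 of the 32 genes lower and 0 higher at an adjusted p under 0.05, and it called 0% of all genes tested in either direction. Their adjusted p-values ran from 0.18 (LDHB) to 0.972 (PFKFB2). At an unadjusted p under 0.05, 6 of the 32 were lower (LDHB, ENO1, LDHA, TKT, GAPDH and ALDOA), where 8.99% of all genes tested were, and 0 were higher, where 8.82% of all genes were. By position, 16 of the 32 had both shFOXM1 libraries below both shControl libraries, beside 25.9% of all genes tested. The opposite order held for 4 (PFKM, PFKFB3, PDK3 and GYS1), beside 27.3% of all genes, and the groups overlapped for the other 12. With 2 libraries against 2, an exact permutation test of a single gene cannot go below a two-sided p of 0.333.

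The knockdown libraries differed in how many of the genes they held below the controls. In shFOXM1 1, 17 of the 32 lay below both controls, beside 38.7% of all genes tested, and 9 lay above both, beside 44.3%. In shFOXM1 2, 25 lay below both controls, beside 44.8%, and 6 lay above both, beside 42.3%. For 27 of the 32 the level was lower in shFOXM1 2 than in shFOXM1 1, beside 53.3% of all genes. The controls differed in the same sense but by less: shControl 2 was below shControl 1 for 22 of the 32, beside 47.4% of all genes, with a median gap of 0.06 on the log2 scale.

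Each knockdown library was also set alone against the controls, with the spread taken from the controls, which assumes that a lone library varies as they do. For the 32 genes this assumption is doubtful, as the SD of the log2 difference was 0.574 between the shFOXM1 libraries and 0.176 between the shControl libraries. These fits share their controls. With shFOXM1 2 alone, limma called 21 of the 32 genes lower, beside 14.5% of all genes tested, and 1 higher, PFKM, beside 11.3%. With shFOXM1 1 alone it called 0 lower and 0 higher, where it called 2.95% of all genes lower and 2.34% higher. At an unadjusted p under 0.05 that fit held 10 of the 32 lower, beside 14.3% of all genes, and 2 higher, beside 15.5%. In shFOXM1 2, 6 of the 32 genes lay under 50% of the shControl mean (LDHA, GPI, PFKFB4, PDK1, PGM1 and GPD1L), and in shFOXM1 1 there were 0 such genes. Beside other genes, 4.72% of all genes tested were under 50% in shFOXM1 2 and 3.33% in shFOXM1 1.

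**Figure D1:**
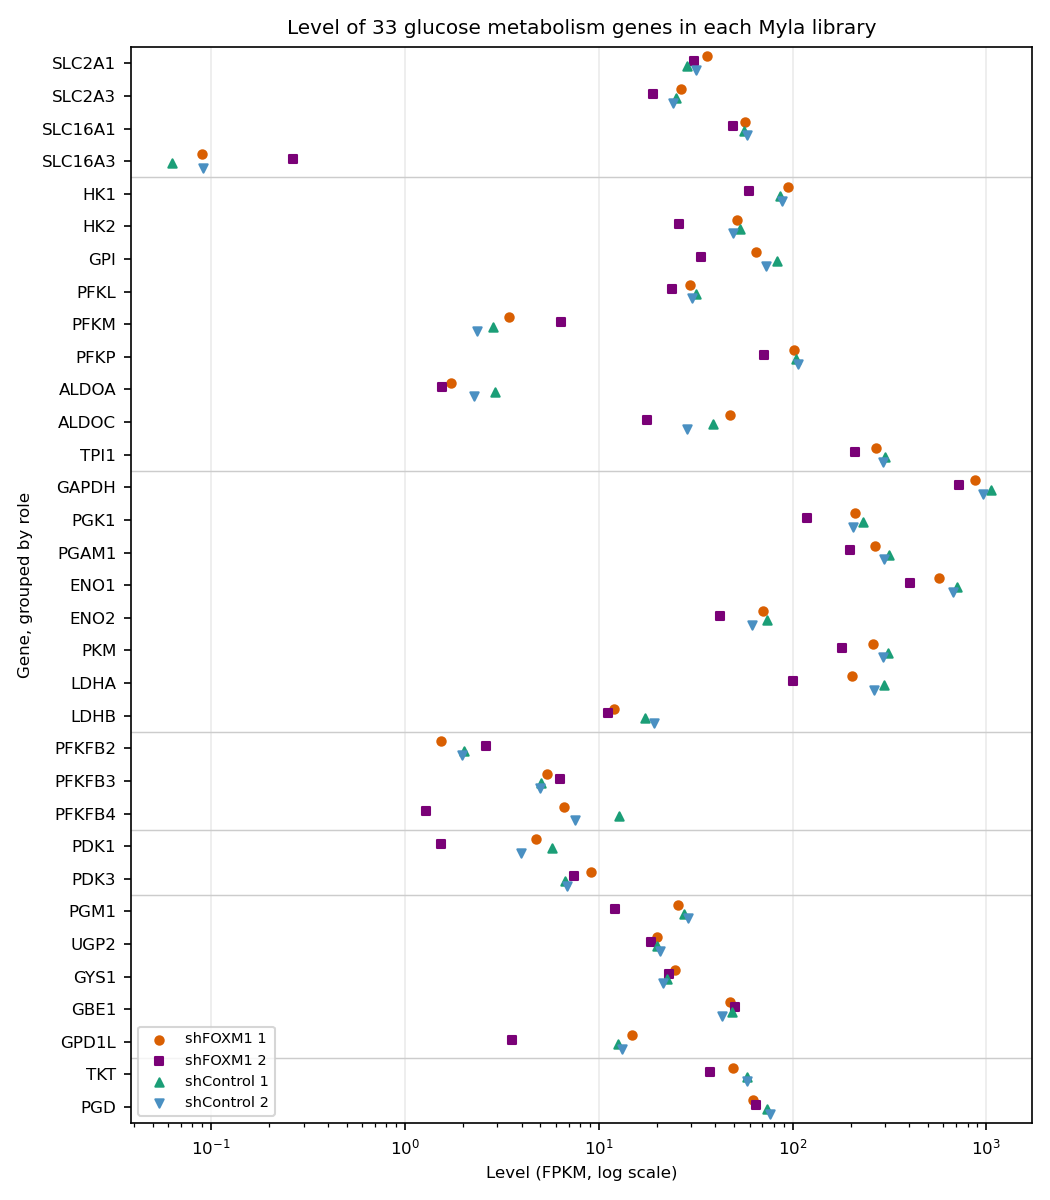
Level of each of the 33 genes in FPKM (log axis) in shFOXM1 1, shFOXM1 2, shControl 1 and shControl 2, with 1 point a library and lines between roles. GAPDH was the highest at 722 to 1058 FPKM and SLC16A3 the lowest at 0.0627 to 0.263 FPKM, and the square of shFOXM1 2 lies left of the other points for most genes of glycolysis.

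**Figure D2:**
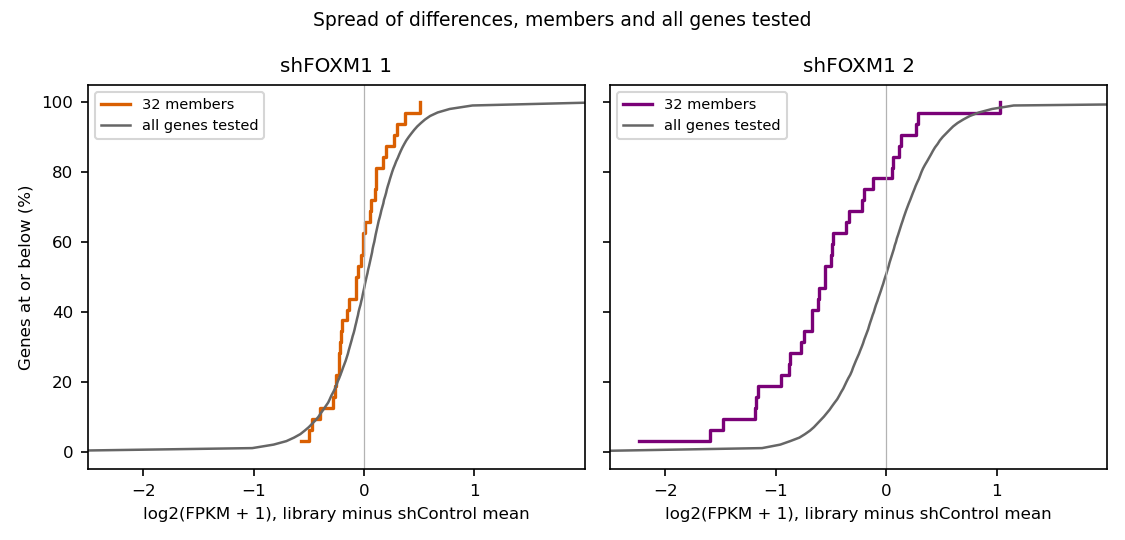
Share of genes (percent) at or below each log2 difference from the shControl mean, for the 32 tested genes (stepped colour) and all 12033 genes tested (grey), with shFOXM1 1 on the left and shFOXM1 2 on the right; the most extreme of all genes lie outside the axis. The stepped line crosses 50% near -0.06 in shFOXM1 1 and near -0.55 in shFOXM1 2, while the grey line crosses near 0.02 and -0.01.

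The transporters were expressed at similar levels in both groups. SLC2A1 (GLUT1), the main glucose importer of proliferating cells, was at 36.3 and 31.1 FPKM in shFOXM1 1 and 2, against 28.4 and 31.6 FPKM in shControl 1 and 2. SLC2A3 (GLUT3), a glucose importer of high affinity, was at 26.5 and 19.1 FPKM in shFOXM1 and 24.9 and 24.1 FPKM in shControl. SLC16A1 (MCT1), which carries lactate and pyruvate across the plasma membrane, was at 56.7 and 49.1 FPKM in shFOXM1 and 56.1 and 58.2 FPKM in shControl. The groups overlapped for all 3, and limma gave them adjusted p-values of 0.554, 0.762 and 0.642, in that order. In shFOXM1 2 alone, SLC2A3 was called lower by a log2 difference of -0.34 (limma adjusted p = 0.041). SLC16A3 (MCT4), the lactate exporter of strongly glycolytic cells, had 12 and 36 reads in shFOXM1 and 8 and 12 in shControl, or at most 0.263 FPKM, and was below the level for testing.

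In upper glycolysis, 5 of 9 genes lay below both controls in both knockdown libraries, beside 25.9% of all genes tested, and PFKM lay above. The hexokinases, which phosphorylate glucose, were both abundant. HK1 was at 94.6 and 59.4 FPKM in shFOXM1 and 86.4 and 88.4 FPKM in shControl. HK2, the hexokinase that hypoxia and T cell activation induce, was at 51.7 and 26.1 FPKM in shFOXM1 and 53.5 and 49.1 FPKM in shControl. For HK1, shFOXM1 1 lay above both controls, for HK2 it lay between them, and for both shFOXM1 2 lay below, so the groups overlapped (log2 differences -0.22 and -0.47, limma adjusted p = 0.651 and 0.489). GPI, which turns glucose 6-phosphate into fructose 6-phosphate, was at 64.7 and 33.7 FPKM in shFOXM1, against 82.7 and 73.0 FPKM in shControl. Both knockdown libraries were below both controls (log2 difference -0.72, SE 0.32, limma adjusted p = 0.321), and the difference was -0.26 in shFOXM1 1 and -1.18 in shFOXM1 2.

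The subunits of phosphofructokinase, the committed step of glycolysis, differed in direction. PFKP, the platelet type and here the most abundant, was at 102 and 71.5 FPKM in shFOXM1 and 104 and 107 FPKM in shControl. PFKL, the liver type, was at 29.5 and 23.8 FPKM in shFOXM1 and 31.6 and 30.2 FPKM in shControl. Both had the knockdown libraries below the controls, with shFOXM1 1 within 0.07 of the shControl mean on the log2 scale. PFKM, the muscle type, was at 3.44 and 6.36 FPKM in shFOXM1 (373 and 709 reads), against 2.86 and 2.35 FPKM in shControl (297 and 254 reads). It was highest in shFOXM1 2 and above both controls in both libraries (log2 difference 0.67, SE 0.27, limma adjusted p = 0.298), and it was the 1 gene of the 32 called higher in shFOXM1 2 alone (1.03, adjusted p = 0.0173).

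Aldolase splits the hexose, and TPI1 interconverts the triose products. ALDOC was the main aldolase by level, at 47.8 and 17.8 FPKM in shFOXM1 and 38.7 and 28.6 FPKM in shControl. Its knockdown libraries lay on either side of the controls, at log2 differences of 0.51 in shFOXM1 1 and -0.87 in shFOXM1 2. ALDOA, the ubiquitous aldolase, was listed at only 1.73 and 1.56 FPKM in shFOXM1 (100 and 93 reads) and 2.93 and 2.27 FPKM in shControl (163 and 131 reads). It was below both controls in both libraries (-0.44, limma unadjusted p = 0.0468, adjusted p = 0.274). Its level is uncertain, since 42.3% of its exonic bases are shared on the same strand with AC093512.2, a gene at 0.356 to 0.545 FPKM, and how shared reads were counted is not given in the sources used here. TPI1 was at 269 and 210 FPKM in shFOXM1 and 300 and 294 FPKM in shControl, with both knockdown libraries below both controls (-0.32, limma adjusted p = 0.328).

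In lower glycolysis, which holds GAPDH and ENO1, the most abundant transcripts of the 33, all 8 genes were lower by sign and 6 of 8 lay below both controls in both knockdown libraries, beside 25.9% of all genes tested. The median difference of the 8 was -0.21 in shFOXM1 1 and -0.71 in shFOXM1 2. GAPDH, which makes the first NADH of the pathway and is a common reference gene, was at 870 and 722 FPKM in shFOXM1 (38380 and 32813 reads), against 1058 and 956 FPKM in shControl (44757 and 42029 reads). Both knockdown libraries were below both controls, at 86.4 and 71.8% of the shControl mean (log2 difference -0.34, SE 0.13, limma adjusted p = 0.273). ENO1, the main enolase, was at 568 and 405 FPKM in shFOXM1 and 706 and 672 FPKM in shControl. It was also below in both libraries, by -0.28 in shFOXM1 1 and -0.77 in shFOXM1 2 (-0.52, SE 0.18, limma adjusted p = 0.25).

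For PGAM1, PKM, PGK1 and ENO2, shFOXM1 2 was the lowest of the 4 libraries. PGAM1, a phosphoglycerate mutase, was at 266 and 199 FPKM in shFOXM1 and 313 and 296 FPKM in shControl. PKM, which makes pyruvate and ATP, was at 260 and 180 FPKM in shFOXM1 and 312 and 293 FPKM in shControl. Both lay below both controls in both libraries, at log2 differences of -0.40 and -0.48 (limma adjusted p = 0.294 and 0.291). PGK1, which makes the first ATP of the pathway, was at 209 and 119 FPKM in shFOXM1 and 232 and 206 FPKM in shControl. Here shFOXM1 1 lay between the controls and shFOXM1 2 below them. ENO2, the neuronal enolase, was at 70.4 and 42.0 FPKM in shFOXM1 and 73.8 and 61.7 FPKM in shControl, and shFOXM1 1 again lay between the controls. In shFOXM1 2 alone, limma called all 8 genes of lower glycolysis lower, beside 14.5% of all genes tested, with adjusted p-values from 0.0122 (LDHA, ENO1 and PKM) to 0.0281 (ENO2).

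Both lactate dehydrogenase genes lay below both controls in both knockdown libraries. LDHA, the subunit that favours lactate formation (ENSG00000134333, chromosome 11, 18394388 to 18408425, plus strand, in the coordinates of the table, GRCh38), was at 202 and 100 FPKM in shFOXM1 1 and 2 (18554 and 9472 reads), against 298 and 263 FPKM in shControl 1 and 2 (26257 and 24128 reads). Both knockdown libraries were below both controls, shFOXM1 1 at 71.9% and shFOXM1 2 at 35.7% of the shControl mean (log2 difference -0.97, SE 0.34, limma unadjusted p = 0.0363, adjusted p = 0.252). LDHB, the subunit that favours pyruvate formation (ENSG00000111716, chromosome 12, 21635342 to 21757857, minus strand), was at 12.0 and 11.2 FPKM in shFOXM1 (529 and 508 reads), against 17.4 and 19.2 FPKM in shControl (738 and 846 reads). Its knockdown libraries lay close together and well below both controls, at -0.57 in shFOXM1 1 and -0.67 in shFOXM1 2. LDHB had the smallest p of the 32 genes (-0.62, SE 0.12, limma unadjusted p = 0.00355, adjusted p = 0.18), and in shFOXM1 1 alone its difference did not pass the adjusted threshold either. Of its exonic bases 33.4% are shared on the same strand with AC010197.2, which held at most 0.0394 FPKM, so its level carries the same uncertainty as that of ALDOA.

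The 250 bases before the transcription start are shown for the 4 genes with the smallest p among the 30 that RefSeq's promoter table (GRCh38.p14) holds, to compare them for motifs that hypoxia-inducible factor and MYC are known to read. Capitals mark ACGTG or its reverse complement CACGT, a form of the core of the hypoxia response element. The other form, GCGTG, was not marked or counted, though the ENO1 window, for instance, holds it. CACGTG, the E-box of MYC, overlaps it and holds it on both strands. Each is printed 5′ to 3′ on the strand of its gene. The LDHA window is chr11:18394313-18394562 on the plus strand, the LDHB window chr12:21657843-21658092 on the minus strand, the ENO1 window chr1:8878687-8878936 on the minus strand and the TKT window chr3:53256023-53256272 on the minus strand; some GENCODE transcripts of these genes begin inside or before the windows.
LDHA: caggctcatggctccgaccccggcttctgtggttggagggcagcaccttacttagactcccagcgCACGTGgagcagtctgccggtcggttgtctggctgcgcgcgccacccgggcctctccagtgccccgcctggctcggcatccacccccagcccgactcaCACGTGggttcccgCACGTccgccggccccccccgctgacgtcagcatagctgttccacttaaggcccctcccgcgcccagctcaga
LDHB: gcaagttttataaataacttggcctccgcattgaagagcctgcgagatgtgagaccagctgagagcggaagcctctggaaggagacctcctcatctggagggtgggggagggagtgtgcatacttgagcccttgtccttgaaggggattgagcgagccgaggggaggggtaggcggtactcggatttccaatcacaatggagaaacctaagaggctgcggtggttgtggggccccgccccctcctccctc
ENO1: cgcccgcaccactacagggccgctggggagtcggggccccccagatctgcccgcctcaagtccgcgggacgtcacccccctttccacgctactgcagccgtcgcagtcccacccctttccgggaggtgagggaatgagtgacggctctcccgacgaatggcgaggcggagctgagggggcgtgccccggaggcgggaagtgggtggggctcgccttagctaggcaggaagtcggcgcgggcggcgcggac
TKT: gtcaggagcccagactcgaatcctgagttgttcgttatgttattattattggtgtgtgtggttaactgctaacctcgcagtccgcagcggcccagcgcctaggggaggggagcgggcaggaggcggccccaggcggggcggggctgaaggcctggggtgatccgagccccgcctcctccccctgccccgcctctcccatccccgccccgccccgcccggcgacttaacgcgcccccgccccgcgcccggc
The LDHA window held 5 matches to ACGTG over both strands, 4 of them in its 2 copies of CACGTG, and the windows of LDHB, ENO1 and TKT held 0. RefSeq lists 2 starts for LDHA, and the one nearest the start in the table was used. Of the 30 genes, 13 had ACGTG in the window (43.3%), beside 18.5% of all 35116 promoters of the table, and 3 had CACGTG (10.0%), beside 6.34%. The shares have unlike bases: each of the 30 genes gave 1 start, while the 35116 hold every listed start of all genes, expressed in these cells or not. These are matches of letters only, and no binding was measured.

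**Figure D3:**
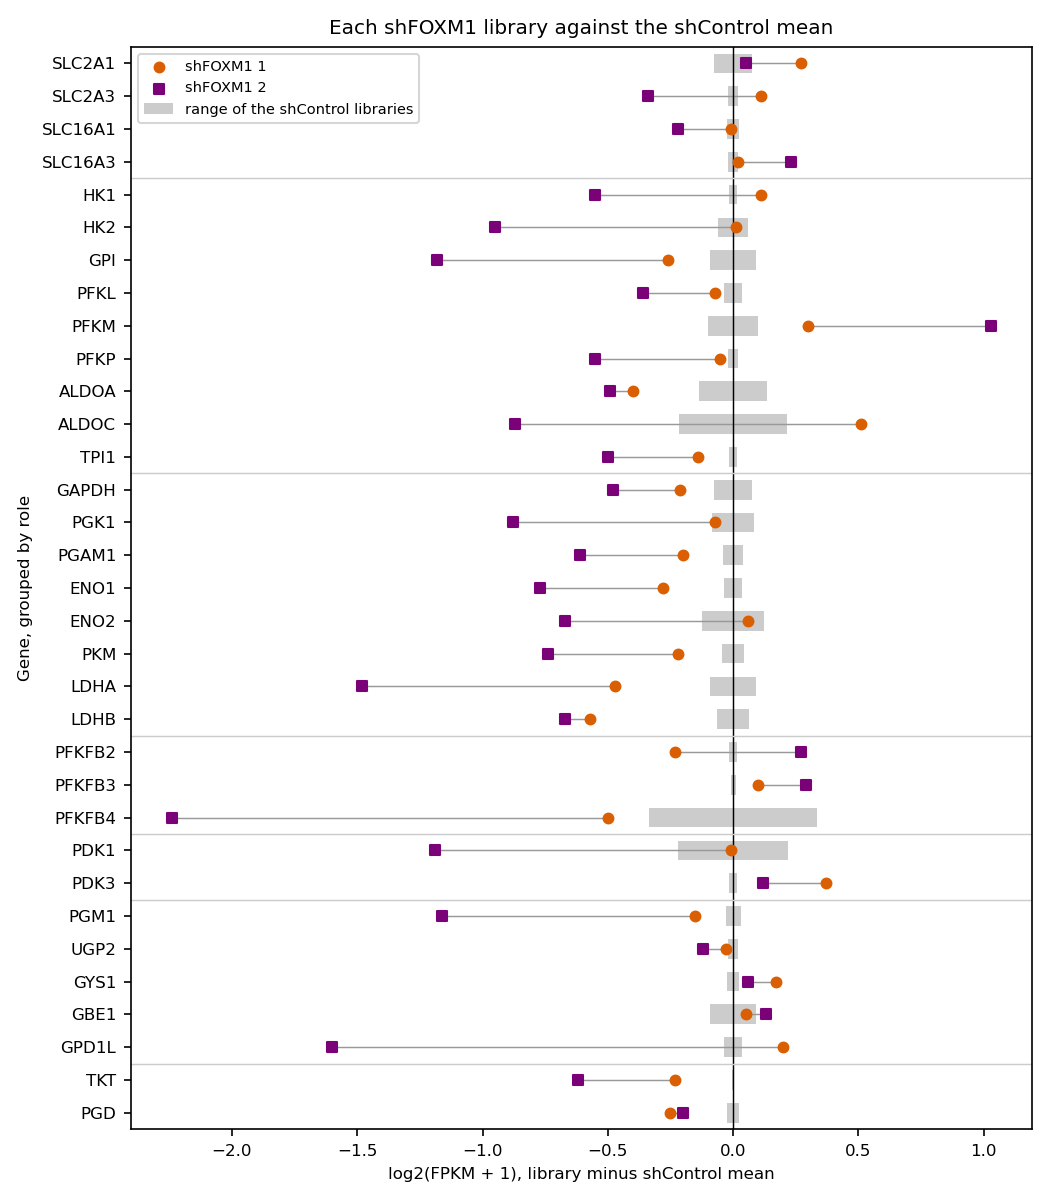
Difference of shFOXM1 1 (circles) and shFOXM1 2 (squares) from the shControl mean on the log2(FPKM + 1) scale for each of the 33 genes, grouped by role; grey bars span the shControl libraries. Squares reach -2.24 for PFKFB4, -1.60 for GPD1L and -1.48 for LDHA, while the lowest circle is LDHB at -0.57.

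The regulators of glycolytic flux split by gene. PFKFB enzymes set the level of fructose 2,6-bisphosphate, the strongest activator of phosphofructokinase. PFKFB4 was at 6.64 and 1.29 FPKM in shFOXM1 (600 and 120 reads), against 12.7 and 7.56 FPKM in shControl (1097 and 681 reads). It was lowest in shFOXM1 2, at 12.8% of the shControl mean, while shFOXM1 1 lay at 65.7% and only just below shControl 2. The controls themselves differed by 0.67 on the log2 scale, and the fit over both groups gave -1.37 (SE 0.61, limma adjusted p = 0.324). PFKFB3, the isoenzyme of proliferating cells, was at 5.41 and 6.31 FPKM in shFOXM1, against 5.02 and 4.96 FPKM in shControl, slightly above both controls in both libraries (0.19, limma adjusted p = 0.474). PFKFB2 was at 1.54 and 2.62 FPKM in shFOXM1 and 2.02 and 1.96 FPKM in shControl, with the knockdown libraries on either side of the controls.

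The pyruvate dehydrogenase kinases, which inhibit the pyruvate dehydrogenase complex, also differed from each other. PDK1, a target of hypoxia-inducible factor, was at 4.74 and 1.53 FPKM in shFOXM1 and 5.72 and 3.96 FPKM in shControl. shFOXM1 1 lay between the controls and shFOXM1 2 below both (-0.60, limma adjusted p = 0.497). PDK3 was at 9.09 and 7.48 FPKM in shFOXM1 and 6.70 and 6.89 FPKM in shControl. It was above both controls in both libraries, more so in shFOXM1 1 (0.37) than in shFOXM1 2 (0.12), with an adjusted p of 0.405.

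Among the glycogen genes the differences were small apart from PGM1 in shFOXM1 2. PGM1, which interconverts glucose 1-phosphate and glucose 6-phosphate, was at 25.5 and 12.1 FPKM in shFOXM1 and 27.6 and 28.9 FPKM in shControl. Both knockdown libraries were below the controls, by -0.15 in shFOXM1 1 and -1.16 in shFOXM1 2 (limma adjusted p = 0.383 for both groups and 0.0122 for shFOXM1 2 alone). UGP2, which makes UDP-glucose, was at 19.9 and 18.7 FPKM in shFOXM1 and 20 and 20.6 FPKM in shControl. GYS1, glycogen synthase, was at 24.7 and 23.0 FPKM in shFOXM1 and 22.4 and 21.5 FPKM in shControl. GBE1, the branching enzyme, was at 47.5 and 50.3 FPKM in shFOXM1 and 48.9 and 43.1 FPKM in shControl. None of these 3 differed from the shControl mean by more than 0.17 on the log2 scale in either library, and limma gave adjusted p-values of 0.747, 0.613 and 0.715. GPD1L, a homologue of glycerol 3-phosphate dehydrogenase, was at 14.9 and 3.55 FPKM in shFOXM1 and 12.5 and 13.2 FPKM in shControl. It showed the widest split between the knockdown libraries on this scale, above both controls in shFOXM1 1 (0.20) and far below both in shFOXM1 2 (-1.60).

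Both enzymes of the pentose phosphate pathway were lower in both knockdown libraries. TKT, transketolase of the non-oxidative branch, was at 49.5 and 37.4 FPKM in shFOXM1 and 58.5 and 58.1 FPKM in shControl (-0.43, SE 0.16, limma unadjusted p = 0.0453, adjusted p = 0.271). PGD, which yields NADPH and ribulose 5-phosphate in the oxidative branch, was at 62.9 and 64.9 FPKM in shFOXM1 and 73.5 and 76.4 FPKM in shControl (-0.23, limma adjusted p = 0.318). Unlike most of the 32 genes, PGD had its lower value in shFOXM1 1.

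The share of an isoenzyme in the summed FPKM of its pair or trio was compared between libraries, without a test. Its size also depends on the annotated length, which was 14883 bases for PDK1 and 4951 bases for PDK3. LDHB made up 5.60 and 10.0% of LDHA and LDHB in shFOXM1 1 and 2, against 5.53 and 6.80% in shControl 1 and 2. This share carries the uncertainty of the LDHB level given above. PFKM made up 2.56 and 6.25% of phosphofructokinase transcripts in shFOXM1, against 2.07 and 1.69% in shControl. In shFOXM1 2 both shares were above every other library, though LDHB itself was lower there than in the controls. PFKFB4 made up 48.8 and 12.6% of PFKFB2, PFKFB3 and PFKFB4 in shFOXM1, against 64.2 and 52.2% in shControl. PDK1 made up 34.3 and 16.9% of PDK1 and PDK3 in shFOXM1, against 46.1 and 36.5% in shControl. Both were lower in both knockdown libraries than in either control. HK2 held 35.3 and 30.5% of HK1 and HK2 in shFOXM1, against 38.2 and 35.7% in shControl. ENO2 held 11 and 9.42% of ENO1 and ENO2 in shFOXM1, against 9.47 and 8.42% in shControl, an overlap of the groups. ENO3, at 8.93 to 12.6 FPKM, was not part of this share.

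**Figure D4:**
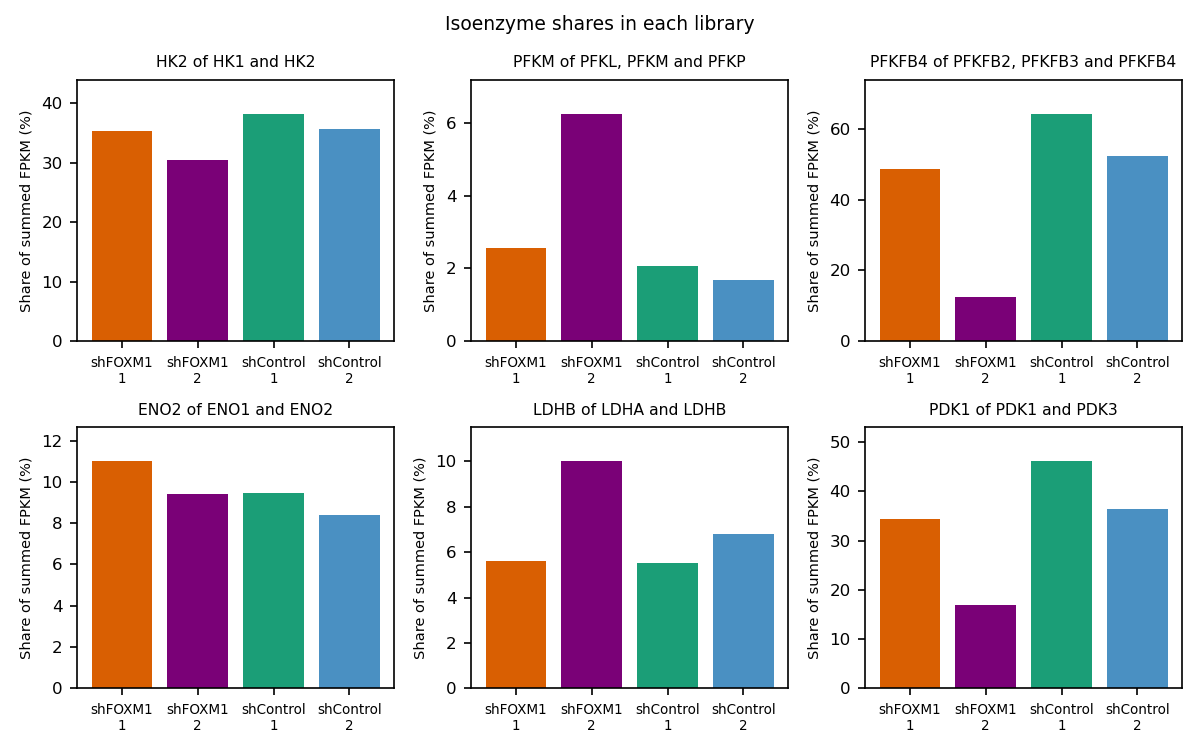
Share of an isoenzyme's FPKM (percent, bars from 0) within its pair or trio in shFOXM1 1, shFOXM1 2, shControl 1 and shControl 2, with no error bars since each bar is 1 library. The share of PFKM reached 6.25% and that of LDHB 10.0% in shFOXM1 2, while PFKFB4 stood at 12.6% and PDK1 at 16.9% there.

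The other genes of these pathways were taken from lists, and limma called 0 genes in every list over both groups. Over all genes tested, 25.9% lay below and 27.3% above both controls in both knockdown libraries. By sign, 6025 of the 12033 genes tested were lower and 6008 higher. Of 15 other glycolysis isoenzymes only 4 reached the level for testing, and 2 of them lay below both controls in both libraries. One was TIGAR, a phosphatase that lowers fructose 2,6-bisphosphate, at 1.01 and 1.03 FPKM in shFOXM1 and 2.12 and 2.33 FPKM in shControl (-0.68, limma unadjusted p = 0.00748, adjusted p = 0.188). Of 15 other genes of sugar and lactate transport 7 were tested, 1 of them below (SLC2A4) and 3 above both controls in both libraries. SLC2A6 (GLUT6), a lysosomal member of the family, was at 25.1 and 21.3 FPKM in shFOXM1 and 15.6 and 17 FPKM in shControl (0.48, limma unadjusted p = 0.0151, adjusted p = 0.204). Of 9 other pentose phosphate genes 8 were tested, 4 below and 2 above both controls. Those below included both PRPS genes, which make the activated ribose of nucleotides. PRPS1 was at 21.5 and 29.9 FPKM in shFOXM1 and 39.2 and 37.3 FPKM in shControl (limma adjusted p = 0.23). PRPS2 was at 33.2 and 22.3 FPKM in shFOXM1 and 42.3 and 44.1 FPKM in shControl (limma adjusted p = 0.234).

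Of 22 other glycogen genes 10 were tested, 9 lower by sign and 6 below both controls in both libraries. PPP1R3E, a subunit that targets protein phosphatase 1 to glycogen, was at 4.69 and 5.78 FPKM in shFOXM1 and 9.07 and 7.81 FPKM in shControl (-0.60, limma adjusted p = 0.195). Of 13 genes for pyruvate entry into the mitochondria 12 were tested, 6 below and 2 above both controls. PDHX, a structural component of the pyruvate dehydrogenase complex, was above, at 14.8 and 15.4 FPKM in shFOXM1 and 10.1 and 11.4 FPKM in shControl (0.46, limma adjusted p = 0.196). Of 10 genes of glycerol phosphate and gluconeogenesis 4 were tested, all lower by sign. SLC37A4, the glucose 6-phosphate carrier of the endoplasmic reticulum, was at 8.77 and 7.11 FPKM in shFOXM1 and 12.9 and 13.9 FPKM in shControl (-0.70, limma adjusted p = 0.183).

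Genes known to regulate these pathways and other targets of hypoxia-inducible factor were measured in the same libraries, with 0 called in either list, and their part in the result was not tested. Of 10 regulators 7 were tested, 2 of them below and 3 above both controls in both libraries, and their median difference was 0.13. HIF1A, the oxygen-regulated subunit of that factor, had a higher transcript level in both knockdown libraries, at 36.9 and 38.2 FPKM in shFOXM1 and 19.8 and 22.6 FPKM in shControl (0.80, SE 0.12, limma unadjusted p = 0.00116, adjusted p = 0.173). MYC was at 171 and 95.1 FPKM in shFOXM1 and 172 and 182 FPKM in shControl, close to the controls in shFOXM1 1 and well below them in shFOXM1 2 (-0.46, limma adjusted p = 0.441). TXNIP, which restrains glucose uptake and is induced by glucose, was at 17.5 and 28.4 FPKM in shFOXM1 and 14.1 and 13.8 FPKM in shControl (0.64, limma adjusted p = 0.269). Of 15 hypoxia targets outside carbohydrate metabolism 12 were tested, all 12 lower by sign, 8 below both controls in both libraries (25.9% of all genes tested) and 7 lower at an unadjusted p under 0.05 (8.99% of all genes). Their median difference was -0.34 in shFOXM1 1 and -0.86 in shFOXM1 2, and the shControl libraries differed by 0.23 over the same genes, with shControl 2 the lower. P4HA1, a collagen prolyl hydroxylase subunit, was at 28.4 and 19.2 FPKM in shFOXM1 and 50.3 and 45.7 FPKM in shControl (-1.0, limma adjusted p = 0.183).

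**Figure D5:**
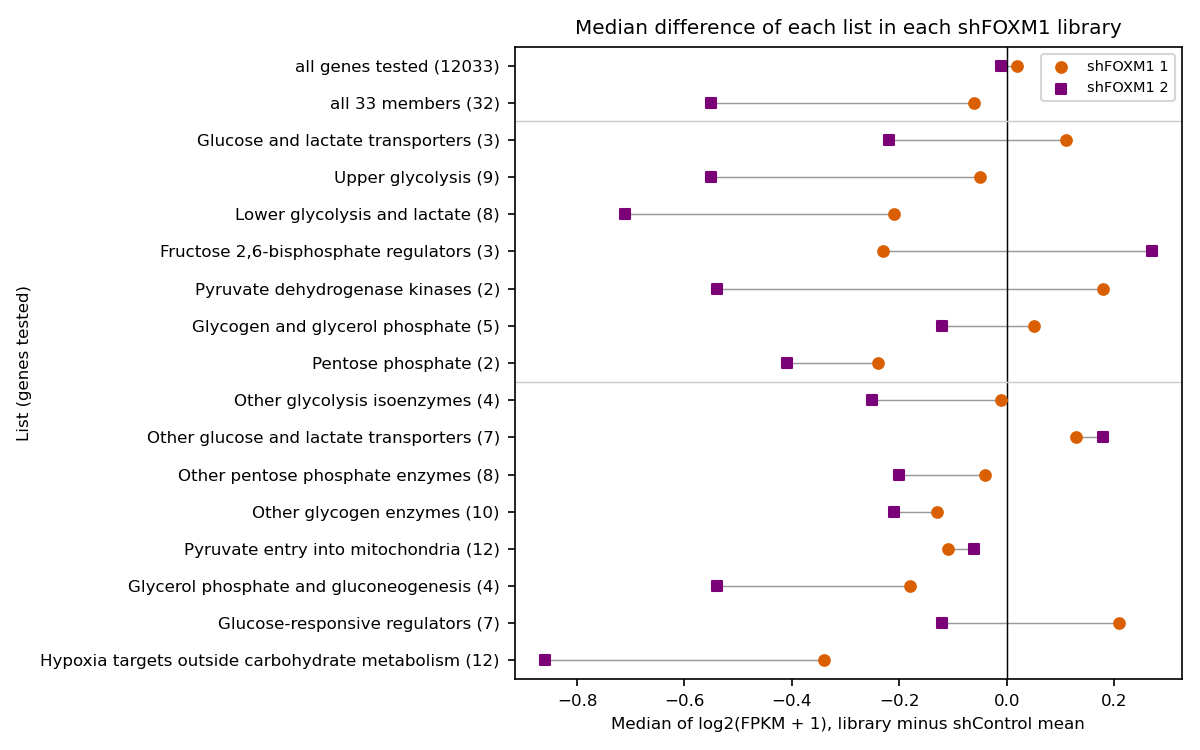
Median log2 difference from the shControl mean in shFOXM1 1 (circles) and shFOXM1 2 (squares) for all genes tested, the 32 tested genes, their roles and the other lists, with the number of genes tested in brackets. Lower glycolysis stood at -0.21 and -0.71 and the hypoxia targets at -0.34 and -0.86, while all genes stood at 0.02 and -0.01.

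Several measures moved with the split between the knockdown libraries, and their part in it was not tested. FOXM1 was lower in shFOXM1 2 than in shFOXM1 1, as given above. Mitochondrial genes held 5.72 and 4.98% of reads in shFOXM1 1 and 2, against 5.93 and 5.88% in shControl. The library total implied by the deposited FPKM differed from the reads in the table by 3.8% in shFOXM1 2 and by -1.44 to 0.319% in the other libraries. Summed fibroblast and endothelial markers were at 48.4 and 20.4 FPKM in shFOXM1 and 27.1 and 25.4 FPKM in shControl, and those of B and plasma cells at 0.603 and 8.20 FPKM in shFOXM1 and 2.22 and 1.97 FPKM in shControl. Each sum rested mainly on a single gene, COL3A1 at 45.1 and 15.9 FPKM in shFOXM1 and 24.5 and 22.7 FPKM in shControl, and CD79A at 0.27 and 7.38 FPKM in shFOXM1 and 1.73 and 1.44 FPKM in shControl. MS4A1, BANK1, JCHAIN, DCN, LUM, CDH5 and KDR were at 0 in all 4 libraries. Of the 10 markers in each of the 4 lists for other cell types 1 to 3 were tested and 3 to 5 were at 0 in all libraries. Among those tested, CSF1R was at 8.47 to 13.5 FPKM, TP63 at 7.3 to 9.59 FPKM and KRT10 at 8.18 to 11.1 FPKM. CDH1 was at 2.37 and 8.34 FPKM in shFOXM1 and 5.66 and 4.48 FPKM in shControl. COL1A1, unlike COL3A1, was higher in shFOXM1 2, at 3.23 and 4.48 FPKM in shFOXM1 and 2.5 and 2.75 FPKM in shControl. Pseudogenes named for the 33 genes held at most 1.28% as many reads as the parent gene in any library.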

How the data were processed

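Messenger RNA of 4 Myla cultures was sequenced, 2 shFOXM1 and 2 shControl. The authors deposited one table of FPKM values, with gene lengths, per the file headers. The software that aligned and counted the reads, and its use of strand, were not given in the sources used here. Mouse builds (GRCm38, mm10) stand in the submitters' processing notes, whereas identifiers and coordinates of the 33 genes equal those of human GENCODE release 29 (GRCh38). Columns named sh0 were taken as shControl, and sh1 and sh2 as shFOXM1 1 and 2. There were 0 columns of other samples. FPKM times gene length gave whole reads for all values within 0.05 read, with 14147084 to 15017728 reads a library, so a single read per kb of gene equalled 0.0656 to 0.0705 FPKM.

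In R 4.3.3, limma 3.58.1 was run on log2(FPKM + 1) of the 12033 genes that reached 1 FPKM in 2 libraries or more. Tests were two-sided, variances were moderated along the intensity trend, and p-values were adjusted over these genes by Benjamini and Hochberg (threshold 0.05). The code was tested on simulated data. Single libraries were set against the controls by leaving out the other knockdown library. Over the 12033 genes, same-numbered libraries scarcely deviated together from their group means (correlation 0.0421), so they were not treated as pairs in the main fit. This value does not speak for the 32 genes, where library 2 was the lower for 27 in shFOXM1 and for 22 in shControl. Alternatives were a pseudocount of 0.01 or 0.1, all detected genes in place of the filter, a minimum mean of 5 FPKM, quantile and median-of-ratios scaling, no trend, a replicate block, voom on the recovered reads with and without library weights, and each library left out. All 33 genes are named. Of each other pathway list the named genes are among the 4 with the smallest unadjusted p; markers of cell types were named for their identity or level, after their values were seen. The 33 genes, the lists and these rules were chosen with earlier results of these data known.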

Additional observations from a re-analysis of the deposited data

How the results depend on the processing

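With 2 libraries a group and knockdown libraries that differ, the results depend on which libraries are used. Leaving out each library in turn gave 0 to 1360 genes called higher and 0 to 1744 called lower by limma, 0 to 1 of the 32 tested genes higher and 0 to 21 lower, and a FOXM1 difference of -2.09 to -1.45 (log2; adjusted p = 0.0122 to 0.753). The highest counts and the lowest FOXM1 value came without shFOXM1 1. The median of the 32 genes ran from -0.55 without shFOXM1 1 to -0.06 without shFOXM1 2. Without shFOXM1 2 the sign turned for HK1 (range over the libraries left out -0.55 to 0.11), HK2 (-0.95 to 0.01), ALDOC (-0.87 to 0.51), ENO2 (-0.67 to 0.06), SLC2A3 (-0.34 to 0.11), GPD1L (-1.60 to 0.20) and PFKFB2 (-0.23 to 0.27). ALDOC also turned, to 0.03, without shControl 1. Voom with library weights, which weighted the shFOXM1 libraries at 0.381 and 0.38 and the shControl libraries at 2.63 and 2.62, put 20 of all genes past the threshold upward and 9 downward (FOXM1 -1.89, limma adjusted p = 0.0202), with 0 of the 32 among them; the cause was not tested. With a replicate block, limma called 0 genes. The median of the 32 stayed at -0.31, which was fixed in advance, since a block in this balanced design leaves every difference unchanged. The block did change the p-values: 9 of the 32 were lower at an unadjusted p under 0.05, beside 8.53% of all genes. Every other alternative called 0 genes, and the median was between -0.32 and -0.29. At an unadjusted p under 0.05, between 2 of 33 (no filter, 5.44% of 25712 genes) and 12 of 32 (voom with library weights, 7.92% of 12033 genes) were lower with all libraries used, and at most 1 was higher, beside 5.51 to 9.86% of all genes.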
